A study of Mus musculus with 11 samples.

Results

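Mouse induced pluripotent stem cells (iPSC) grown on feeder cells were compared with an in silico mixture that holds feeder-free iPSC signal and a small, fixed share of feeder signal. A difference from that mixture is an excess or a deficit beyond the feeder RNA the mixture already contains. The comparison uses 6 of the 11 samples of the series: 3 arrays of iPSC on feeder cells and 3 mixture columns, for which the authors added 8% of the feeder signal to 92% of a feeder-free array. All 46627 probes with an identifier were considered, and 18144 probes, standing for 10058 named genes, were bright enough to test. The mixtures come from 3 arrays of feeder-free iPSC and 2 arrays of feeder cells, so they are no independent cultures, and because all 3 carry the same feeder mean their spread leaves out the spread between feeder arrays. Per the labels, all cells were of strain C57BL/6. The feeder cells were embryonic fibroblasts expressing LIF (leukemia inhibitory factor), called MSTO. The layer itself is given in the growth protocol as SNL76/7 cells treated with mitomycin C, and how these relate to MSTO is not said. Feeder-free iPSC received 1000 units of LIF per ml in medium with 15% fetal bovine serum, and a mechanical step parted the iPSC of the on-feeder arrays from the layer. Replicates are numbered but not said to be separate cultures, so p-values cover no more than the spread among columns, which may be technical.

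Feeder cells are growth-arrested fibroblasts that supply pluripotent cells with matrix, secreted factors and, in this line, LIF. LIF binds the receptor pair LIFR and gp130, activates the transcription factor STAT3 and helps to keep mouse pluripotent cells undifferentiated. Chemokines are small secreted proteins that attract leukocytes through G protein-coupled receptors; CCL2, also called MCP-1, is named with LIF in the title of the series. Many chemokine genes are induced through NF-kB, and many matrix protease genes through AP-1. In bulk RNA, fewer cells of a type and less RNA per cell cannot be told apart, and neither can the cell type in which a transcript lay.

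The on-feeder arrays and the mixtures were alike across probes. Pearson correlations of log2 levels, taken across probes, which are not independent replicates, were 0.9905 to 0.9935 among on-feeder arrays, 0.9931 to 0.9951 among mixtures and 0.9806 to 0.99 between the groups. An on-feeder array detected 17630 to 19043 probes, a feeder-free array 17307 to 18759 and a feeder array 13581 to 14574. At an adjusted p under 0.05 (limma, Benjamini-Hochberg over all 18144 probes), 704 probes were higher on feeder cells (3.88% of those tested) and 591 were lower (3.26%). By gene, taking the brightest probe of each, 417 were higher (4.15%) and 384 were lower (3.82%), and the median difference over all genes was -0.02 on the log2 scale. Changes of at least 2-fold were fewer, with 69 genes higher and 24 lower. The total of 1295 probes depended on single columns: it was 634, 2010 and 605 without on-feeder array 1, 2 or 3, and 489 and 529 without mixture 2 or 3. The plot of the difference against the mean level shows that Cxcl1 stood apart at the top and Ptn lay lowest.

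**Figure D1:**
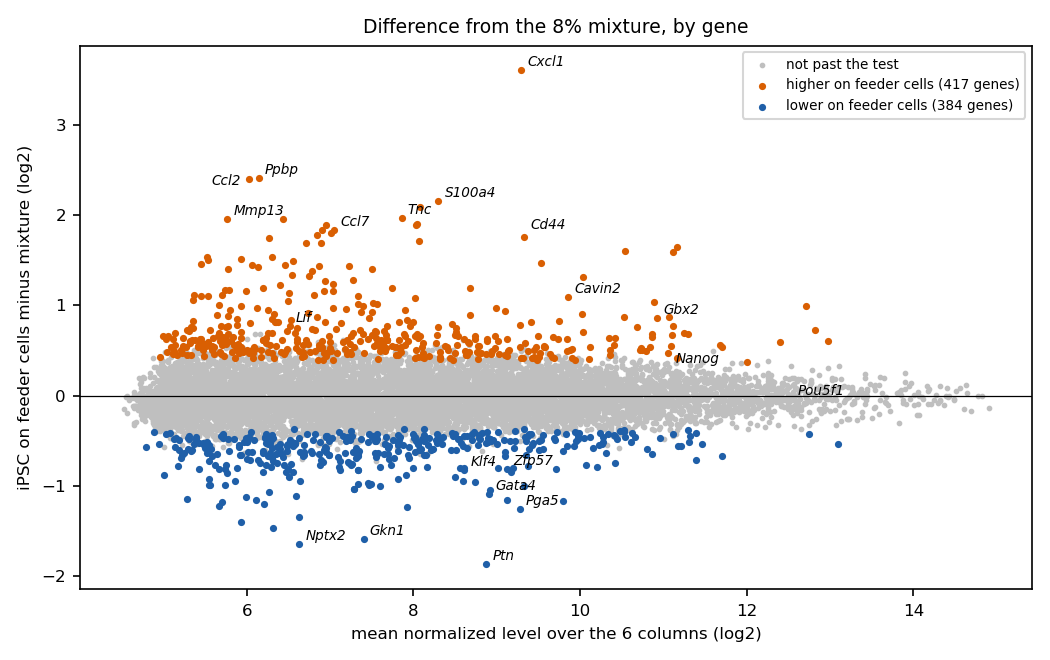
Difference in normalized log2 level between iPSC on feeder cells and the 8% mixture (vertical axis) against the mean level over the 6 columns (horizontal axis), 1 point per gene. Orange points are the 417 genes higher on feeder cells, blue points the 384 lower, grey points those that did not pass the test; Cxcl1 lies at 3.60 and Ptn at -1.87.

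The chemokines held the largest excess of the comparison. Of 21 listed chemokine genes, 10 were bright enough to test; 5 were higher on feeder cells and 2 were lower, where 4.15% of all genes were higher and 3.82% lower, and the same numbers were found with any single column left out. The median difference of the list was 0.50, against -0.02 over all genes. Like the lists below, this list was chosen with earlier results of these data known, so its counts are a description. Cxcl1, the mouse neutrophil attractant KC, reached normalized log2 levels of 11.12, 11.04 and 11.12 on the on-feeder arrays, against 7.43, 7.43 and 7.60 in the mixtures. Every on-feeder array lay far above every mixture, a 12.2-fold difference (log2 difference 3.60, SE 0.10, adjusted p = 3.64e-08). Ccl2 stood at 7.10, 7.25 and 7.32 on feeder cells, against 4.74, 4.93 and 4.81 in the mixtures. All 3 mixture values were under the lowest level that counts as detected, so the excess of Ccl2 is given as at least 4.56-fold (adjusted p = 2.64e-06). Ppbp, which encodes the platelet chemokine CXCL7 and was not on the list, stood at 7.30, 7.15 and 7.59 against 4.84, 4.95 and 5.01, at least 4.97-fold higher. Ppbp was kept for the comparison by its detection on the on-feeder arrays, so its excess is a description.

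These 3 chemokine transcripts were also above the feeder cells themselves, in a separate fit of the 8 measured arrays. Cxcl1 on feeder cells exceeded the feeder arrays by 0.64 on the log2 scale (SE 0.15, adjusted p = 0.00164) and the feeder-free arrays by 5.05. Ccl2 exceeded the feeder arrays by 0.77 (adjusted p = 0.000821) and Ppbp by 1.5, and neither was detected on a feeder-free array. A pair of CC chemokines lay between the sources: Ccl7 was 3.55-fold above the mixture (7.89, 7.84 and 8.17 on feeder cells, against 6.07, 6.13 and 6.21) but 1.07 log2 units below the feeder arrays, and Ccl9 was 2.90-fold above the mixture but 1.5 log2 units below them. Cx3cl1, the membrane-bound fractalkine, completed the higher group. The chemokines that were lower were Cxcl12, the ligand of CXCR4, with a log2 difference of -0.97 (adjusted p = 0.00121), and Cxcl16, with -0.80 (adjusted p = 0.00119). Ccl5, Ccl25 and Ccl27a did not pass the test.

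Promoter windows are shown for Cxcl1 and Ppbp, and for Mmp13, described next, as examples whose on-feeder level lay above both source cultures. Other genes above both, such as Ccl2 and Il33, are not shown. Each window is the 250 bases before the RefSeq gene start on GRCm38.p6, written 5′ to 3′ along the gene's strand. Capitals mark matches to the NF-kB consensus in Cxcl1 and to TGANTCA, here called the AP-1 letters, in the others. N stands for any base, so this pattern is loose. Both strands were searched. Of 32851 promoters in the RefSeq table, 3.9% held the NF-kB consensus and 6.75% held TGANTCA in a window of this length.
Cxcl1 (chr5:90890995-90891244, + strand): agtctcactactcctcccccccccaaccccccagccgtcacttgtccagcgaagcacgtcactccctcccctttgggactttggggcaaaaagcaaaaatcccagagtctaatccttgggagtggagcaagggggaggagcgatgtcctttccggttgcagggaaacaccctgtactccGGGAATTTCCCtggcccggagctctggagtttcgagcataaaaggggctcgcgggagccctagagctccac
Ppbp (chr5:90768268-90768517, + strand): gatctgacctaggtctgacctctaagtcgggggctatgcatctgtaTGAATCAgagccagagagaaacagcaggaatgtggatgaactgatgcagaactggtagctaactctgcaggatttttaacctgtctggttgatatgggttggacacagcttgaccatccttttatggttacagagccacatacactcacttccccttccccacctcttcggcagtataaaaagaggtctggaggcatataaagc
Mmp13 (chr9:7272264-7272513, + strand): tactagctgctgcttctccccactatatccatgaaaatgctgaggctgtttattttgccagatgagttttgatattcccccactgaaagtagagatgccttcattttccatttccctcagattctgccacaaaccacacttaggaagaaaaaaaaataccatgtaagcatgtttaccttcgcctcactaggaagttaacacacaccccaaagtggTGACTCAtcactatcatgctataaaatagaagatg
In Cxcl1 the capitals cover overlapping matches on both strands, between 71 and 61 bases before the start. In Mmp13 the AP-1 letters lay 35 to 29 bases before the start and in Ppbp 204 to 198 bases. Among genes that were lower on feeder cells, the window of Gkn1 also held the AP-1 letters and that of Ptn held neither motif. A match describes letters, not a binding site.

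A small group of transcripts was detected on feeder cells and in neither source. On all 3 on-feeder arrays and on none of the 5 source arrays, 49 probes were detected, of which 31 carried a gene symbol; 17 of the 49 were called higher, 10 of them with a symbol. Because this set was selected by detection on the same arrays, the number called and the values of its genes are a description. Mmp13, which encodes a collagenase, was at 6.83, 6.44 and 6.96 on feeder cells, against 4.82, 4.74 and 4.81 in the mixtures, at least 3.27-fold higher. Serpinb2, an inhibitor of urokinase, was at least 2.40-fold higher, with 6.17, 6.57 and 6.15 against 4.75, 4.73 and 4.81. Selp, the adhesion receptor P-selectin, was at least 1.85-fold higher, and Ptpn22, a tyrosine phosphatase known from lymphocytes, at least 1.80-fold. Serpinb2, Selp and Ptpn22 were picked from this group after their values were seen. The defining leukocyte markers Ptprc, Lyz2 and Adgre1 were detected on no array of the 8, and Cd14 was detected on 2 on-feeder arrays and both feeder arrays with no call against the mixture (log2 difference 0.12, adjusted p = 0.514).

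**Figure D2:**
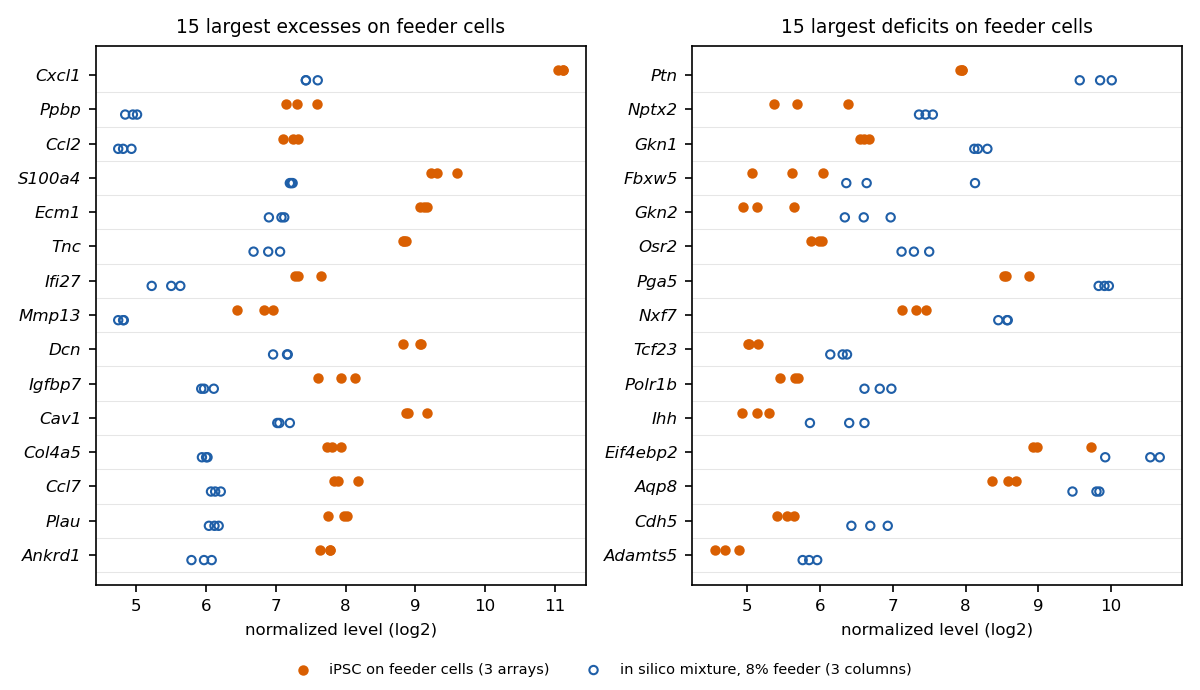
Normalized log2 level in each of the 6 columns for the 15 genes with the largest excess (left) and the 15 with the largest deficit (right). Filled orange points are the 3 arrays of iPSC on feeder cells and open blue points the 3 mixtures; genes were picked among those whose groups do not overlap, and the gap is narrow for Eif4ebp2 and Fbxw5.

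Other NF-kB and acute inflammatory genes were higher in part. Of 23 listed, 11 were tested; 4 were higher and none lower, against 4.15% and 3.82% of all genes, and the list median was 0.33, against -0.02 over all genes. Tnfaip2, a TNF-induced gene, was 2.69-fold above the mixture (adjusted p = 0.000153), Csf1, the macrophage growth factor, 2.28-fold (adjusted p = 6.77e-05) and Vcam1, the leukocyte adhesion molecule, 2.28-fold (adjusted p = 0.00106). Il33, an alarmin of the IL-1 family, stood at 6.58, 6.73 and 6.86 on feeder cells, against 6.03, 5.59 and 5.72 in the mixtures (1.93-fold, adjusted p = 0.0024). Its level exceeded the feeder arrays by 0.75 and the feeder-free arrays by 0.86 on the log2 scale, both past the test (adjusted p = 0.000929 and 0.00199). The regulators Relb, Nfkb2, Nfkbiz, Tnfaip3 and Bcl3, the acute-phase gene Saa3 and the adhesion gene Icam1 did not pass the test, with log2 differences from -0.22 for Bcl3 to 0.46 for Nfkbiz.

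Matrix, protease and adhesion transcripts showed excesses beside members that the mixture matched. In the fibroblast and matrix list, 26 of 34 genes were tested. Of these, 10 were higher and 3 lower, against 4.15% and 3.82% of all genes, and the median was 0.12. Tnc, the matrix glycoprotein tenascin-C, was at 8.87, 8.82 and 8.83 on feeder cells, against 6.68, 6.89 and 7.06 in the mixtures (3.90-fold, adjusted p = 1.05e-05), with further Tnc probes higher by 1.73 and 0.59. Its level was not distinguished from that of the feeder arrays (log2 difference -0.18, adjusted p = 0.257). Dcn, the proteoglycan decorin, was at 8.82, 9.07 and 9.08 against 7.17, 7.16 and 6.96, a 3.72-fold excess, and both further Dcn probes were higher by 1.85 and 1.72 on the log2 scale. Ecm1, a secreted matrix protein outside the list, was 4.25-fold above the mixture on its brightest probe, while a second probe gave a log2 difference of 0.67. Igfbp7, a secreted binding protein of insulin-like growth factors, was 3.71-fold higher, and Col4a5, a basement membrane collagen, 3.57-fold on its brightest probe and by 0.89 on the log2 scale on a second. The stromelysin Mmp3 was 2.71-fold higher and Plau, the protease urokinase, 3.48-fold. Thbs2, Fbln2, Bgn, Timp1, Timp2 and Col5a1 made up the rest of the higher members. The lower members were the collagen cross-linking enzymes Lox, Loxl1 and Loxl2, with log2 differences of -0.66, -0.51 and -0.60, and the lower count was 0 without on-feeder array 1 or mixture 2 and 1 without mixture 3.

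The S100 and cell-surface list held 9 higher and 2 lower genes among 18 tested of 20, with a median of 0.43. Over all genes, 4.15% were higher and 3.82% lower. Without on-feeder array 3 or mixture 2 the higher count was 5, and the lower count was 1 without on-feeder array 1 or 3 or mixture 1 and 0 without mixture 2. The lower genes were S100a13 and the integrin subunit gene Itga5, both at -0.66. S100a4, a calcium-binding protein typical of fibroblasts and motile cells, was at 9.23, 9.31 and 9.59 on feeder cells, against 7.20, 7.22 and 7.24 in the mixtures (4.45-fold, adjusted p = 6.86e-06). S100a6 was 2.00-fold higher. Cd44, the hyaluronan receptor, was 3.37-fold higher on its brightest probe, with log2 differences of 0.83 (adjusted p = 0.00393) and 0.14 (adjusted p = 0.576) on its other probes, so the Cd44 probes disagree in size. Against 4.15% higher and 3.82% lower of all genes, 6 of 18 tested in the actin and YAP list were higher and none lower. These were Cav1 and the caveola coat genes Cavin1 and Cavin2, the annexins Anxa1 and Anxa2, and Ankrd1, a YAP target that was 3.44-fold above the mixture. The canonical YAP targets Ccn1 and Ccn2 did not pass the test, with log2 differences of -0.22 and -0.11.

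The fibroblast markers of the list fixed for cell types did not move as a block. Col1a1 was at 8.26, 8.38 and 7.98 on feeder cells, against 8.11, 8.40 and 8.60 in the mixtures, and the groups overlapped (log2 difference -0.17, adjusted p = 0.51). Col6a1 differed by 0.01 (adjusted p = 0.963), Twist1 by 0.14 and Thy1 by 0.29, none past the test. Among the 8 tested fibroblast markers of 12, Dcn was the one that was higher and Lox the one that was lower. Col1a2, Col3a1, Postn and Lum were detected on no array, feeder arrays included, so the labelled embryonic fibroblasts lacked signal for those defining markers on this array. Endothelial markers were mixed, with Cdh5 lower by 1.15 on the log2 scale and Pecam1, Kdr and Tek not past the test.

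Each gene that is strong in feeder cells implies a feeder share for an on-feeder array. It measures feeder RNA only if the gene kept its level in both cell types in co-culture, which was not tested. The implied share is the on-feeder signal minus the mean feeder-free signal, divided by the mean feeder signal minus the mean feeder-free signal. A set of 41 probes was detected on both feeder arrays and on no feeder-free array. Over these, the median implied share was 7.51% on on-feeder array 1, 3.49% on array 2 and 12.4% on array 3, with a mean of 7.81% ± 4.48 (SD, n = 3). The 8% of the mixture lies inside that range. With arrays scaled to a common median the mean was 5.79% ± 1.16 (SD, n = 3). All other implied shares given here come from signals not scaled between arrays, so the brightness of an array enters them. The single genes differed far more than the arrays: 165 genes had a feeder signal at least 10 times the feeder-free one, and their implied shares had medians of 9.97%, 5.61% and 13.7% on the 3 arrays. Quartiles of the mean share over arrays were 5.72% and 16.9%, and it ran from -1.08% for Vegfd to 163% for Cxcl1. Against 4.15% higher and 3.82% lower of all genes, 47 of these 165 genes were higher than the mixture and 33 were lower. The other 85 did not pass the test. These counts are a description, because the signals that selected the genes also built the mixture. Genes kept through the feeder arrays alone, such as Adamts5, are among the 165. The order of genes was similar on the 3 arrays, with Spearman correlations of 0.9 to 0.948 across genes, given as a description because the arrays share the same feeder and feeder-free values.

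**Figure D3:**
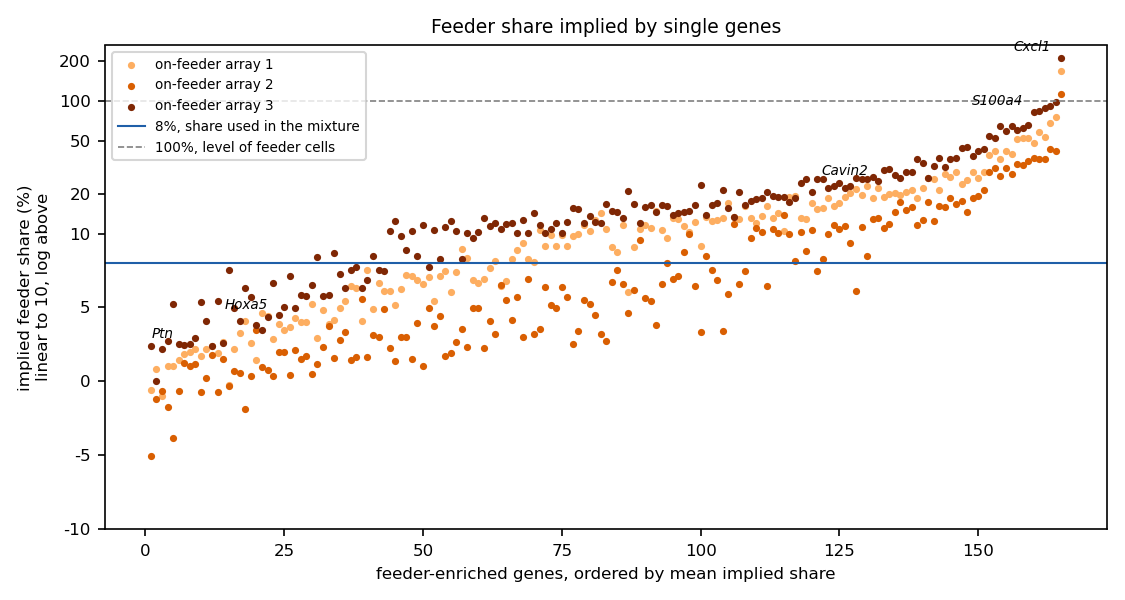
Feeder share implied by each of 165 feeder-enriched genes (vertical axis, %, linear up to 10 and logarithmic above) on each of the 3 on-feeder arrays, with genes ordered by their mean along the horizontal axis. The solid line is the 8% of the mixture and the dashed line the level of feeder cells. Genes run from -1.08% for Vegfd to 163% for Cxcl1 by their mean. Array 3 is mostly the highest and array 2 the lowest, with signals not scaled between arrays.

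At the high end of that order, Cxcl1 implied 166%, 113% and 211% on the 3 arrays. Plau implied 71.6% on average, Ankrd1 67.7%, Ccl7 59.3%, S100a4 56.1%, Col4a5 49.1%, Cav1 44.4% and Cd44 41.7%. Vcam1 implied 22.8%, Cavin2 22.0%, 13.1% and 24.7% on the 3 arrays, and Slit2, an axon guidance ligand picked after its value was seen, 29.0%. The low end held genes strong on the feeder arrays whose on-feeder level was under that of the mixture. Ptn, the heparin-binding growth factor pleiotrophin, had a feeder signal 251 times the feeder-free one and implied 1.82%, 1.23% and 2.49%. Igf1 implied 1.11%, Osr2 2.11%, Cxcl12 2.66% and the homeobox gene Hoxa5 3.44%; Igf1 and Hoxa5 were picked after their values were seen.

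The deficits were smaller than the excesses and involved genes of both sources. Among the 15 largest, Ptn, Osr2, Polr1b, Fbxw5 and Adamts5 had more signal in feeder cells, and the others had more in feeder-free iPSC. Ptn was at 7.95, 7.92 and 7.95 on feeder cells, against 9.57, 9.85 and 10.01 in the mixtures, the largest deficit (log2 difference -1.87, SE 0.12, adjusted p = 1.19e-05). Osr2, a zinc finger factor of limb and palate mesenchyme, was lower by 1.34 on the log2 scale (adjusted p = 9.67e-05). Polr1b, a subunit of RNA polymerase I, was lower by 1.20 (adjusted p = 0.00031). Adamts5, an aggrecanase, was detected on no on-feeder array and was at least 1.81-fold lower, but its second probe gave -0.08 (adjusted p = 0.679). It was kept through the feeder arrays alone, where it is high, so its deficit is a description. Fbxw5, an F-box protein, passed the test narrowly (log2 difference -1.46, adjusted p = 0.0478) and had one mixture at 8.13 against 6.64 and 6.36 in the others; leaving out any on-feeder array, or mixture 1 or 3, ended its call. Its feeder level also rested on 1 array, at 5.29 on feeder array 1 and 10.2 on feeder array 2, and with array 1 alone in the mixture the log2 difference was -0.73 (adjusted p = 0.415).

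Among stomach and gut secretory genes, a list chosen with earlier results of these data known, 9 of 15 were tested. Of these, 4 were lower and none higher, against 3.82% and 4.15% of all genes, and the list median was -0.27. Gkn1, the stomach mucosal protein gastrokine 1, was at 6.67, 6.61 and 6.55 on feeder cells, against 8.30, 8.17 and 8.12 in the mixtures. The groups were far apart, 3.01-fold lower on feeder cells (adjusted p = 1.05e-05). Gkn2, a related gastrokine, was 2.63-fold lower and was detected on 2 of 3 on-feeder arrays; it was kept through the feeder-free arrays, where it is high, and is a description. Pga5, a pepsinogen, was at 8.55, 8.53 and 8.87 against 9.91, 9.97 and 9.83 (2.38-fold lower, adjusted p = 0.000157), and Aqp8, a water channel, was 2.23-fold lower. None of these 4 was detected in feeder cells. The on-feeder level of each was also below that of the feeder-free arrays, by 1.76 for Gkn1, 1.41 for Gkn2, 1.44 for Pga5 and 1.34 for Aqp8 on the log2 scale. Gkn3, Spink1, Clu, Krt19 and Muc1 did not pass the test.

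Several single genes from feeder-free iPSC were lower to a like extent. Nptx2, a neuronal pentraxin, was at 6.38, 5.37 and 5.68 on feeder cells, against 7.55, 7.36 and 7.45 in the mixtures (3.13-fold lower, adjusted p = 0.00119). Nxf7, of the nuclear RNA export family, was 2.35-fold lower, Tcf23, a helix-loop-helix factor, 2.33-fold, and Ihh, the signal Indian hedgehog, 2.26-fold; Tcf23 and Ihh were detected on 2 of 3 on-feeder arrays and, kept through the feeder-free arrays alone, are descriptions. Cdh5, the adhesion molecule VE-cadherin, was 2.22-fold lower. Eif4ebp2, a repressor of translation initiation, was 2.24-fold lower (adjusted p = 0.0149), a call that ended without on-feeder array 1 or 3 or without mixture 2 or 3, with log2 differences from -1.42 to -1.02 over the fits with one column left out.

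The primitive endoderm list, which names markers of the first extraembryonic lineage, was lower in part. Of 15 tested genes of 19, 5 were lower and 1 was higher, against 3.82% and 4.15% of all genes, with a median of -0.30. The lower count was 2 without mixture 2 and 3 without mixture 3. Gata4, a lineage factor of primitive endoderm, was at 8.40, 8.47 and 8.21 on feeder cells, against 9.21, 9.56 and 9.58 in the mixtures (2.13-fold lower, adjusted p = 0.000731). A second Gata4 probe differed by 0.17 (adjusted p = 0.409), so the call rests on the brighter probe. Fst, the activin antagonist follistatin, was 1.80-fold lower, and Foxa2, an endoderm factor, 1.52-fold, with the Foxa2 call lost without mixture 2. Col4a1 and Amn were the other lower members, and Pdgfra, a growth factor receptor, was higher by 0.58 on one probe and differed by -0.20 on another (adjusted p = 0.284), a call lost without on-feeder array 1 or 3 or mixture 2 or 3. Gata6, Sox17, Sox7, Hnf4a and Dab2 did not pass the test. In the mesoderm list 5 of 14 genes were tested, and Hand1, kept through the feeder-free arrays alone, and Bmp4 were lower, by 0.81 and 0.67 on the log2 scale. None of that list was higher, where 3.82% of all genes were lower and 4.15% higher.

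Pluripotency factors did not differ past the test. Of 19 core pluripotency genes, 16 were tested and none was called, with a median difference of 0.09. Over all genes 7.96% were called, a share at which a list of 16 holds few calls. The absence of calls is therefore not read as a result about the list. In the same limma fit 3 of the 16 had an unadjusted p under 0.05, against 2706 of all 10058 genes. Without on-feeder array 2 there were 2 calls. Pou5f1, the factor OCT4, was at 12.44, 12.73 and 12.38 on feeder cells, against 12.44, 12.58 and 12.67 in the mixtures (log2 difference -0.04, adjusted p = 0.858). Nanog was at 11.15, 10.96 and 11.56 against 11.08, 10.90 and 10.76 (0.31, adjusted p = 0.236), and Sox2 at 9.84, 10.36 and 9.91 against 10.06, 10.31 and 10.33 (-0.20, adjusted p = 0.428). For all 3 factors the groups overlapped. Zfp42, Esrrb, Tdgf1, Utf1, Fgf4 and Dppa4, the other pluripotency markers tested, had log2 differences from -0.38 for Utf1 to 0.34 for Tdgf1. Utf1, a chromatin-bound factor of pluripotent cells, was called lower without background correction (-0.37, adjusted p = 0.0339). Every tested pluripotency marker was detected on all 3 on-feeder arrays.

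Among naive pluripotency regulators, single genes were called in both directions. Of 16 listed, 15 were tested. Whichever column was left out, 1 was higher and 2 were lower, against 4.15% and 3.82% of all genes. These few calls are not read as a result about the list. Gbx2, a homeobox gene downstream of LIF and STAT3, was at 11.40, 11.23 and 11.44 on feeder cells, against 10.73, 10.38 and 10.40 in the mixtures (1.81-fold higher, adjusted p = 0.00261). Feeder cells alone gave 0.0209 times its feeder-free signal, and the on-feeder arrays lay 0.76 log2 units above the feeder-free arrays (adjusted p = 0.00453). Klf4, a reprogramming factor, was at 8.12, 8.46 and 8.02 against 8.79, 9.08 and 9.19 (1.77-fold lower, adjusted p = 0.0085); of its other probes one was lower by 0.79 and one differed by 0.59 in the opposite direction (adjusted p = 0.0593), and without the filter on dim probes the call was lost (adjusted p = 0.0516). Zfp57, which protects methylation at imprinted loci, was 1.76-fold lower (adjusted p = 0.00449).

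Of the LIF receptor and STAT3 list all 18 genes were tested. There, 3 were higher and none lower, against 4.15% and 3.82% of all genes. Lif itself was at 6.86, 6.92 and 6.92 on feeder cells, against 6.15, 6.13 and 6.10 in the mixtures, 1.71-fold above the mixture (adjusted p = 0.00106) and 0.53 log2 units below the feeder arrays. Both groups were tight and apart. Ier3, an immediate early gene, was 1.82-fold higher, and Osmr, the oncostatin M receptor subunit, 1.45-fold (adjusted p = 0.0178), a call lost without on-feeder array 1 or mixture 2 or 3. The STAT3 feedback genes Socs3, Socs1, Socs2 and Cish and the receptor genes Lifr and Il6st did not pass the test, with log2 differences from -0.44 for Il6st to 0.06 for Socs3.

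BMP and SMAD genes were lower or uncalled. Of 12 listed, 8 were tested. Of these, 4 were lower and none higher, against 3.82% and 4.15% of all genes, with a median of -0.36. The same shares of all genes apply to the FGF and WNT lists below, whose few calls are not read as results about the lists. The lower BMP count was 1 without on-feeder array 1 and 2 without on-feeder array 3 or mixture 2 or 3. Bmp4, the ligand, was at 8.74, 8.96 and 8.60 on feeder cells, against 9.50, 9.44 and 9.36 in the mixtures (1.59-fold lower, adjusted p = 0.00832), and its second probe gave -0.47 (adjusted p = 0.102). Hey1, Msx1 and Bmper were 1.71-fold, 1.48-fold and 1.39-fold lower, and each was lost without on-feeder array 1, Msx1 also without on-feeder array 3 or mixture 2 or 3, and Bmper without any one column other than on-feeder array 2. Msx1 was strong in feeder cells, with a mean implied feeder share of 2.62%. With 4% feeder signal in the mixture Msx1 was not called (log2 difference -0.19, limma adjusted p = 0.334). None of the direct targets Id1 to Id4 passed, with log2 differences from -0.23 for Id3 to 0.02 for Id4. In the FGF and ERK list, 12 of 14 were tested; Dusp5, an ERK phosphatase, and Spred1, a RAS pathway inhibitor, were higher by 0.66 and 0.51, and Dusp4 was lower by 0.48. All 3 calls were lost without mixture 2, Spred1 and Dusp4 also without on-feeder array 1, and Dusp4 also without mixture 1 or 3, while without on-feeder array 2 there were 3 higher and 2 lower. Of 6 tested WNT targets of 11, Ccnd1 was higher by 0.54 and Axin2, a feedback inhibitor, lower by 0.58, and both were lost without mixture 2, Ccnd1 also without on-feeder array 1 and Axin2 without mixture 3.

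**Figure D4:**
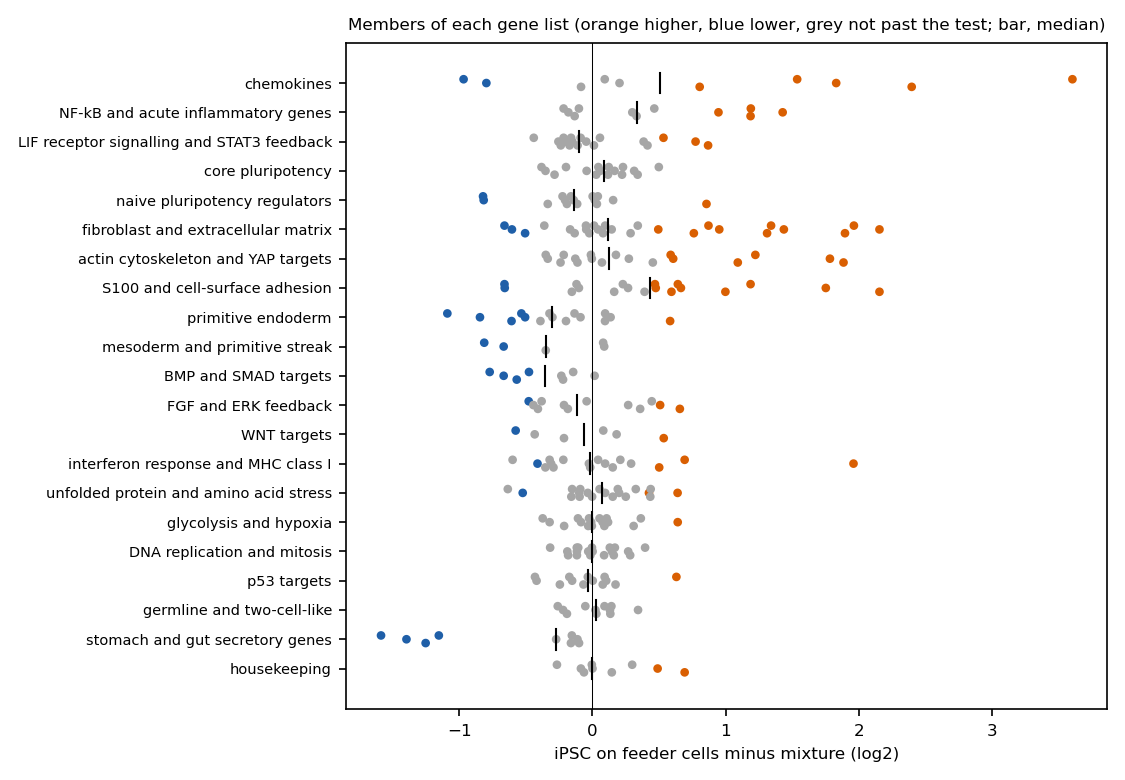
Difference in log2 level between iPSC on feeder cells and the 8% mixture (horizontal axis) for every tested member of 21 gene lists (rows). Orange points were higher, blue points lower and grey points not past the test, and the black bar is the list median; chemokines reach furthest right at 3.60 and stomach and gut genes furthest left at -1.59.

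In the interferon and MHC class I list, 3 of 17 tested genes of 24 were higher and 1 was lower, against 4.15% and 3.82% of all genes. The same shares apply to the stress, glycolysis and p53 lists below, whose few calls are not read as results about the lists. Ifi27, an interferon-induced gene, was at 7.31, 7.28 and 7.64 on feeder cells, against 5.63, 5.50 and 5.22 in the mixtures (3.89-fold, adjusted p = 2.1e-05). The interferon-induced genes Irf7, Bst2, Ifit2, Ifitm1 and Stat2 did not pass the test, so Ifi27 stood out in its list by size. B2m, the light chain of MHC class I, was 1.62-fold higher and H2-D1, a heavy chain, 1.42-fold, with the H2-D1 call lost without on-feeder array 1 or mixture 2 or 3. Psmb8, an immunoproteasome subunit, was lower by 0.41 (adjusted p = 0.0468), a call lost without any one column other than on-feeder array 2, where 3 genes of the list were lower. In the stress list, 20 of 21 were tested: Chac1, which degrades glutathione, was higher by 0.64, Trib3 was higher by 0.42 and Atf5 lower by 0.52. Further Trib3 probes gave -0.07 and -0.21, and its call was lost without on-feeder array 1 or 3 or any mixture, and Atf5 without on-feeder array 1 or 3 or mixture 3. Atf5 was strong in feeder cells, with a mean implied feeder share of 2.12%. With 4% feeder signal in the mixture Atf5 was not called (log2 difference -0.21, limma adjusted p = 0.301). Of 17 tested glycolysis and hypoxia genes of 23, Vegfa alone was called, 1.56-fold higher, and not without on-feeder array 1 or mixture 3. Of 13 tested p53 targets of 16, the death receptor gene Fas alone was called (log2 difference 0.63, adjusted p = 0.00442; second probe 0.05).

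No call was made among 19 tested DNA replication and mitosis genes of 22 or among 11 tested germline and two-cell-like genes of 18, with list medians of 0.00 and 0.03. Over all genes 7.96% were called, so few calls are due in lists of this size and their absence is not read as a result. At an unadjusted p under 0.05 in the limma fit there were 3 and 1 such genes, against 2706 of all 10058 genes. Without on-feeder array 2, 1 replication gene was called. Of 9 tested housekeeping genes of 14, B2m and Rplp0 were higher, against 4.15% of all genes, and the median was 0.00. Gapdh and Tbp differed by less than 0.01 and Actb by 0.15 (adjusted p = 0.416). Rplp0, a ribosomal protein gene, was 1.40-fold higher (adjusted p = 0.046), a call lost without on-feeder array 1 or 3 or mixture 2 or 3.

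The excess or deficit of genes strong in feeder cells depended on the feeder share given to the mixture. Cxcl1 was above the mixture by 4.11, 3.60, 3.22, 2.92, 2.68, 2.20 and 1.55 on the log2 scale at feeder shares of 4%, 8%, 12%, 16%, 20%, 30% and 50%. Cxcl1 kept its call throughout. Mmp13, which was detected in neither source, hardly moved, with 1.96 at 8% and 1.90 at 50%. S100a4 and Ccl7 came down to 0.04 and 0.05 at 50%. Cavin2 was at 0.25 at 16%, no longer called (limma adjusted p = 0.209), and at -0.04 at 20%. Of 96 named genes, 3 lost their call at 12% (Ccnd1, Psmb8 and Rplp0) and 9 at 16%. Vcam1, Osmr, B2m and H2-D1 were among those lost at 16%. A smaller share of 4% ended 5 calls (Hoxa5, Msx1, Atf5, Fbxw5 and Trib3). Lox turned to 0.19 at 4%, also no longer called (limma adjusted p = 0.395). Col6a1 was matched at 8% only, with 0.77 at 4% and -0.48 at 12%. Gkn1 and Gata4 stayed below the mixture at every share, at -0.94 and -0.35 with 50% feeder signal, while Ptn moved further below it, to -4.48. Of the 704 probes higher and 591 lower at 8%, 650 and 504 were called the same way at 4%, 543 and 505 at 20%, and 407 and 336 at 50%. At 8.36%, the median over the 41 feeder-specific probes of their mean implied share, the numbers were 692 and 587.

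**Figure D5:**
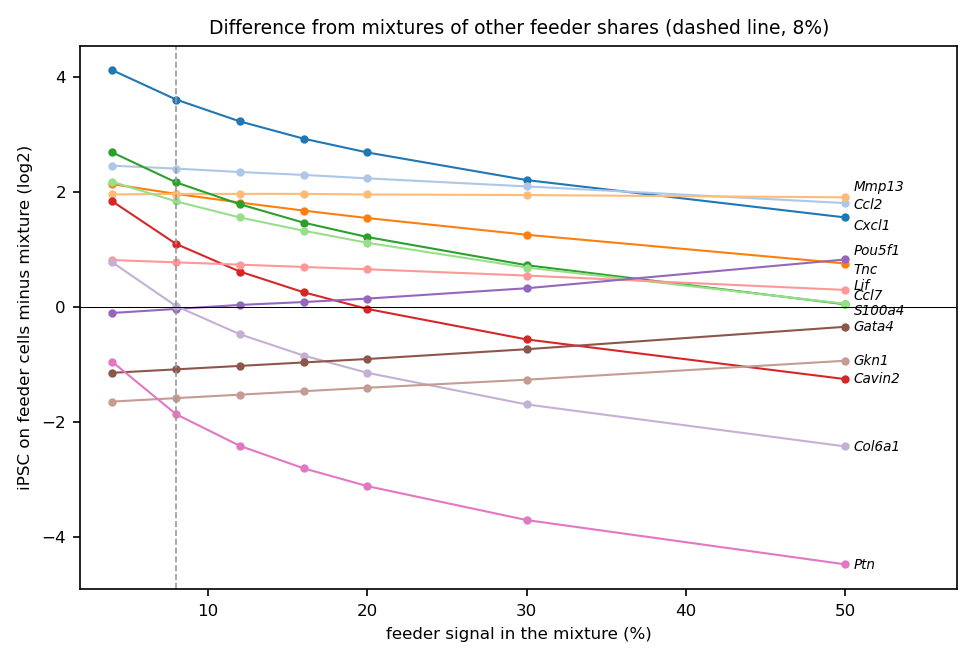
Difference in log2 level between iPSC on feeder cells and mixtures of 4% to 50% feeder signal (vertical and horizontal axes) for 13 genes, 1 line per gene; the dashed line marks 8%. Lines of genes strong in feeder cells fall with the share, and those of Cavin2 and Col6a1 cross 0. Lines of Cxcl1, Ccl2, Mmp13, Tnc, Lif, S100a4 and Ccl7 stay above 0, with S100a4 and Ccl7 at 0.04 and 0.05 at 50%. The line of Pou5f1 crosses 0 from below, and those of Gkn1, Gata4 and Ptn stay below it.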

How the data were processed

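Labelled cRNA was hybridized to Illumina BeadChip arrays. The authors' deposited table holds non-normalized bead intensity per probe and column and, per the file headers, a detection value beside each measured array. That deposited score rose with signal (Spearman correlations from 0.9961 to 0.9987) and was taken for 1 minus the p-value of detection. Among 46632 entries, 5 had no probe identifier and were left out (0.472% to 0.555% of on-feeder signal). The submitters' processing notes name limma without a version. A further deposited table of normalized intensity was not used, because 9 of its 11 columns did not follow the non-normalized ones (Pearson correlations -0.0294 to -0.0265). The deposited feeder-free columns were pooled (the first and second were 100% identical), so each single feeder-free array was solved for from its mixture column. After rounding to 1 decimal, they added up to the pooled column on 95.7% of probes within 0.01 signal units.

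Background was corrected by normexp (limma 3.58.1, R 4.3.3), with its level estimated from detection p-values and an offset of 16. Mixtures were rebuilt from the corrected signals as 92% feeder-free array plus 8% feeder mean, since mixture columns carry no detection score. The 6 columns were quantile normalized, put on the log2 scale and fitted with lmFit and eBayes, without a replicate block (4 residual and 6.7 prior degrees of freedom). Tests were two-sided, with Benjamini-Hochberg adjustment over 18144 probes that every array of 1 or more measured groups detected (score above 0.95). A separate fit of the 8 measured arrays set named genes against each source culture. The brightest kept probe stood for a gene. Symbols came from the platform annotation, with 29972 probes having 1 symbol, 10 several and 16645 none listed, and 29917 matched RefSeq by Entrez ID. Feeder-specific probes had a score over 0.99 on both feeder arrays, no detection on feeder-free arrays and a feeder signal of at least 200. Where a group was under the detection floor in all its columns, the fold is a lower bound against that floor. The floor of a mixture weighted both source floors by its shares.

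Genes named were the 15 largest excesses and deficits with groups that do not overlap, Ccl2 and Lif, up to 4 called members of each list, cell type markers, and others said to be picked after their values were seen. Members and lists were chosen with earlier results of these data known. On-feeder arrays and mixtures of the same number did not deviate together (Pearson correlations 0.0194, 0.1437 and -0.2035), so the numbers were not taken as pairs. Slides and scan dates were not given in the sources used here. The number of arrays limits the precision. The fit was tested on simulated data. Python 3.11.15, pandas 2.3.3, numpy 2.4.6 and matplotlib 3.10.9 were used. Alternatives in background correction, normalization, filter, feeder share, feeder array, replicate block and left-out columns are given in the closing section.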

Additional observations from a re-analysis of the deposited data

How the results depend on the processing

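Of 77 named genes that were called, 57 kept their call in each of the 6 fits with one column left out and 20 lost it in at least 1. Leaving out one column gave 489 to 2010 probes past the test, with 314 to 1067 higher and 175 to 943 lower, against 1295, 704 and 591 with all columns. Without normalization between columns 75 passed (57 higher, 18 lower), without the filter on dim probes 753 passed (407 higher, 346 lower), and median scaling gave 389 lower. Of 96 named genes, 45 lost their call without normalization, 11 without the filter (Klf4 and Fst among them) and 5 under median scaling. A larger feeder share gave more calls: 2217 at 16% (1070 higher, 1147 lower), 3045 at 20% (1438 higher, 1607 lower), 5451 at 30% (2698 higher, 2753 lower) and 9865 at 50% (5278 higher, 4587 lower). The replicate number as a block gave 1123, as a hint from data that do not show the numbers to pair the columns, and lost Psmb8 (adjusted p = 0.0758) and Trib3 (adjusted p = 0.0809). The feeder share of 7.81% ranged from 5.50% to 9.97% without one on-feeder array, and was 9.77% over 10-fold feeder-enriched genes, an alternative chosen after seeing the data. The cause of the other changes was not tested. Among genes called at 8% or at the other setting, directions turned under other feeder shares alone, where more or less feeder signal is put into the mixture by construction. At 4% this held for Lox (0.19), at 12% and 16% for Col6a1 (-0.48 and -0.85), and at 20% for Cavin2 (-0.04), Thy1 (-0.57), Col6a1 (-1.15) and Twist1 (-0.52). At 30% it held for Vcam1 (-0.46), Osmr (-0.13), Cavin2 (-0.57), Ccnd1 (-0.28), B2m (-0.17), H2-D1 (-0.14), Thy1 (-1.02), Col6a1 (-1.70), Twist1 (-0.91), Cd14 (-0.44) and Slit2 (-0.11). At 50% it held for Cav1 (-0.28), Col4a5 (-0.16), Ccl9 (-0.30), Csf1 (-0.29), Vcam1 (-1.17), Ier3 (-0.32), Osmr (-0.62), Mmp3 (-0.08), Anxa1 (-0.04), Cavin2 (-1.26), Cd44 (-0.24), S100a6 (-0.22), Ccnd1 (-0.76), B2m (-0.64), H2-D1 (-0.55), Fas (-0.39), Thy1 (-1.65), Pdgfrb (-0.24), Col6a1 (-2.43), Twist1 (-1.52), Cd14 (-0.86) and Slit2 (-0.76). Also at 50%, the other way, it held for Bmp4 (0.10), Dusp4 (0.23), Psmb8 (0.29), Pou5f1 (0.82), Sox2 (0.63), Esrrb (0.64), Utf1 (0.48) and Fgf4 (0.45). Detected probes were 2.56 to 3.2 times brighter than undetected ones by median, so low levels are given as bounds.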
